A study of Homo sapiens with 30 samples.

Results

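HOXB5, HOXB6, HOXB7, HOXB8, HOXB9 and HOXB13 are the genes at the posterior, 5′ side of the HOXB cluster on human chromosome 17. Their members here are the ATAC-seq peaks that overlap the body of 1 of these 6 genes or the 3 kb on either side of it. Merged across the 10 deposited peak lists, those peaks made up 26 regions of the 493444 regions of the series on chromosomes 1 to 22, X and Y. The windows of HOXB5 to HOXB9 run together into 1 block of 41.1 kb (chromosome 17, 48588257 to 48629358, GRCh38), and the HOXB13 window is a separate 9.99 kb (48721763 to 48731750).

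All libraries came from wild-type H1 cells, a line of human embryonic stem cells, with 3 replicates in each of 10 groups and 50000 cells per library. Omni-ATAC-seq marks open chromatin by where the Tn5 transposase can insert sequencing adapters. The day 0 group is the pluripotent cells (hPSC). On day 1, after A8301, trametinib, C59 and LDN193189, the cells were definitive ectoderm (DE). By day 2 one protocol had turned DE into anterior (aNE) and another into posterior neural ectoderm (pNE). The aNE medium held A8301, LDN193189, C59 and thiazovivin. In the pNE medium C59 was replaced by the retinoic acid receptor agonist TTNPB at 50 nM, FGF2 at 20 ng/mL and the tankyrase inhibitor XAV939 at 1 µM. Both were carried to day 4 in telencephalon, midbrain or hindbrain medium, which gave aNE_T, aNE_M, aNE_H, pNE_T, pNE_M and pNE_H. The day 2 groups were plated at 37500 per square cm in both protocols. Cells kept past day 2 were plated at 75000 per square cm in the aNE protocol and at 150000 in the pNE protocol. Plating density on day 4 therefore follows origin, and it also differs between day 2 and day 4.

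HOX genes encode homeodomain transcription factors that give cells their position along the head-to-tail axis. In each cluster the genes near the 3′ end are used earlier and nearer the head, and those near the 5′ end later and nearer the tail. Retinoic acid and FGF signals act on the cluster in the neural tube, and Polycomb proteins keep it silent where it is not used. HOXB5 to HOXB9 are genes of the spinal cord and trunk rather than of the forebrain or midbrain, and HOXB13 is best known from the prostate and hindgut. The HOXB genes are read toward lower coordinates, so the higher end of each gene body is its 5′ end.

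Each group has 1 list of positions, without scores. Values therefore carry no error between replicates, and read depth is unknown. An absent peak means that the authors' caller listed none there, and an opening in some of the cells cannot be told apart from a weak opening in all of them. The lists held 167792 (aNE) to 313095 (pNE_H) peaks on the chromosomes used, covering 75.5 to 129.0 Mb. Peaks of the pNE_H list therefore covered more than those of any other list, while pNE_M, at 84.2 Mb, lay within the range of the remaining 9. In the HOXB windows, however, pNE_M stood apart from all other lists in where its peaks lay, as described with its values further on. All 51 genes of 9 marker lists (pluripotent, neural, regional and other cell types) had a peak in their window in every list, so peak presence did not check the cell labels. The pluripotency list summed to 22306 bases in hPSC and 18054 to 25333 over the 10 lists. The summed bases of all 9 marker lists, including mesendoderm (11815 to 13534 against 11946 to 14507), neural crest, surface ectoderm and blood and vessel genes, overlapped between the 3 aNE-derived and the 3 pNE-derived lists.

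2 stretches of sequence in the HOXB13 window are shown because hPSC peaks there were absent or narrower in later lists. They are the 250 bases before an annotated transcript start of PRAC1 and of PRAC2, which encode small nuclear proteins known from prostate and colon, read 5′ to 3′ from RefSeq (GRCh38.p14). Capitals mark bases inside the peaks of every list that had a peak there: hPSC alone at PRAC1, and hPSC, DE, pNE, pNE_M and pNE_H at PRAC2.
PRAC1, chr17:48722519-48722768, minus strand: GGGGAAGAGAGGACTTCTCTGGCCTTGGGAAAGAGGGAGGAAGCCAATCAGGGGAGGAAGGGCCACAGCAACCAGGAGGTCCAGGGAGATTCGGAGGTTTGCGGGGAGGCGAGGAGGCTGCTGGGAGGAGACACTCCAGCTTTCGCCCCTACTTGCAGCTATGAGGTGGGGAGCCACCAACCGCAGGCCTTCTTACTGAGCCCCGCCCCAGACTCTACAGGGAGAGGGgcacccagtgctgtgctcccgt
PRAC2, chr17:48722935-48723184, plus strand: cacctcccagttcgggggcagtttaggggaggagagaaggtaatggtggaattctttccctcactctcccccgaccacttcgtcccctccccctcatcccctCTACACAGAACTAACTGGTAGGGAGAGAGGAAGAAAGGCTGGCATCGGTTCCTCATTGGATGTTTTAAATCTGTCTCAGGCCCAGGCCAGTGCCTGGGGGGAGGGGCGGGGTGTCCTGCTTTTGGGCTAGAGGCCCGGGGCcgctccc
The hPSC peak took in 228 of the 250 PRAC1 bases, and the peaks of all 5 lists shared 141 of the 250 PRAC2 bases. Each stretch held 7 CpG dinucleotides, against a median of 11 over the same stretch of 35116 promoters in the table. Neither held AGGTCA, the letters bound by retinoic acid receptors and other nuclear receptors, on either strand; 12.1% of all promoters held AGGTCA at least once. Its direct repeats contain the same letters, so their absence follows and is no further result. Of all promoters 0.00285% held each repeat. The HOX-PBX letters TGATTNAT (2.48% of promoters), the CDX letters TTTATGG (2.3%) and the POU octamer ATGCAAAT (1.63%) were also in neither stretch, on either strand. Nor were the SOX letters ACAATGG (2.62%) and the CTCF motif searched (1.6%). The rest of the gene windows was not searched.

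The bases inside peaks over all 6 windows were near level until day 2 and stood apart by origin on day 4. hPSC had 5776, DE 5944, aNE 5926 and pNE 6275. Of the aNE-derived lists aNE_T had 6144, aNE_M 5959 and aNE_H 5671. Of the pNE-derived lists pNE_T had 6815, pNE_M 9286 and pNE_H 10198. The 3 pNE-derived values lay above all 7 others, and pNE_M and pNE_H stood furthest out, at 18.2% and 20.0% of the window bases against 11.1% to 13.3% in the other 8 lists. pNE_T did not keep that place under other settings. Per Mb covered in the whole list it had 76.2 bases against 78.5 in aNE, with pNE_H at 78.9, and with 10 kb on either side of the genes it had 10142 against 10252 in hPSC. The number of peaks followed another order, with 20 for hPSC, 18 for DE, 13 for aNE, 14 for pNE, 13, 15 and 16 in aNE_T, aNE_M and aNE_H, and 16, 18 and 20 in pNE_T, pNE_M and pNE_H. hPSC and pNE_H thus had 20 peaks each, but the median peak was 222 bp wide in hPSC and 288 bp in pNE_H, and the widest 1045 bp and 1787 bp.

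**Figure D1:**
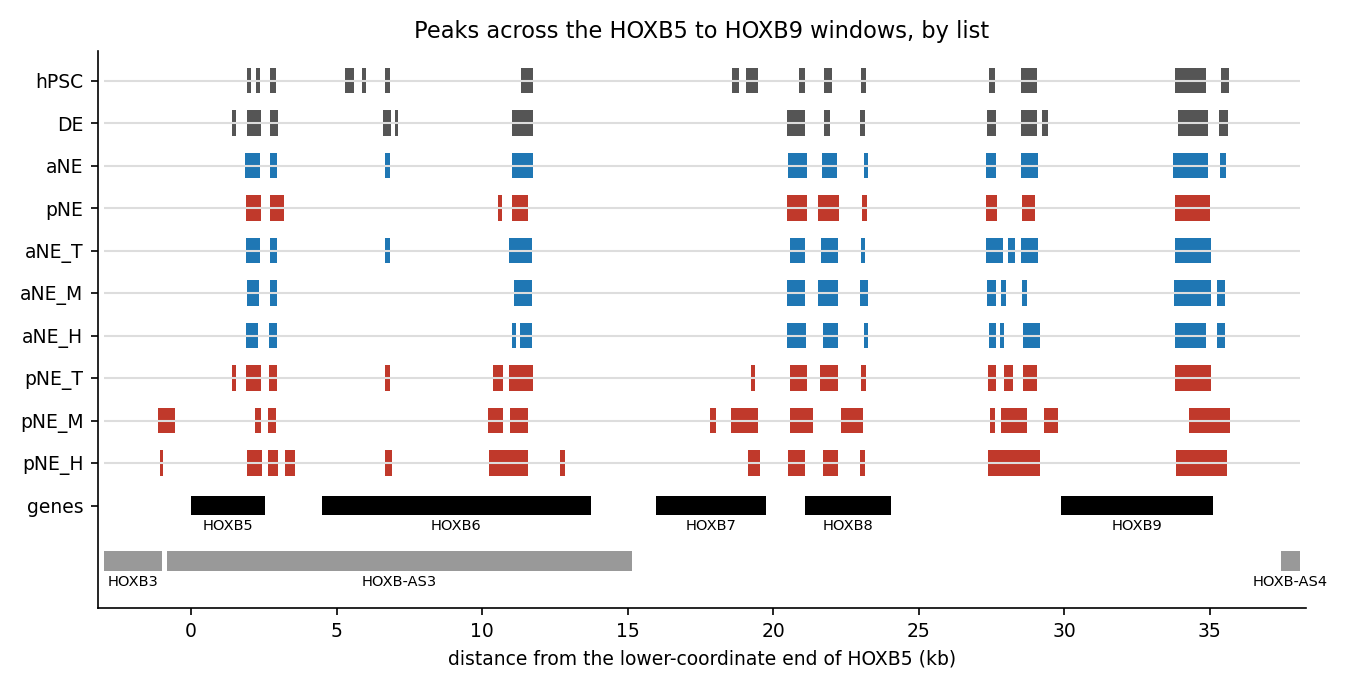
Peaks (filled blocks) of each of the 10 lists across the joined HOXB5 to HOXB9 windows, with distance from the lower-coordinate end of HOXB5 in kb on the horizontal axis, and gene bodies below (members black, other genes grey). Blocks of aNE and its descendants are blue, those of pNE and its descendants red; 7 regions hold a peak in every list of the 10, and the 2 hPSC peaks in the 3′ part of HOXB6, nearest to HOXB5, are matched in no other list.

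Pluripotent cells already had open sites across these genes, and each later list lacked some of them. Of the 20 hPSC peaks, 8 overlapped a peak in each of the 9 later lists and 3 overlapped none in any. DE lacked 6 of the 20 (30.0%, against 22.4% of all hPSC peaks in the series). The day 2 lists lacked 8 each, or 40.0% (39.0% of all hPSC peaks for aNE, 35.3% for pNE). On day 4 aNE_T lacked 8 (40.0% against 36.6%), aNE_M 7 (35.0% against 35.7%) and aNE_H 7 (35.0% against 39.7%). Among the pNE-derived lists pNE_T lacked 7 (35.0% against 43.3%), pNE_M 6 (30.0% against 43.5%) and pNE_H 4 (20.0% against 32.2%). pNE_H is the longest list, and with every list kept to the same number of widest peaks it lacked 6 of 15 (40.0%). In that setting pNE_M lacked 4 of 15 (26.7%), the lowest, and the other later lists 40.0% to 53.3%. With 20 peaks, 1 peak is 5 percentage points. Of the hPSC peaks within 3 kb of protein-coding genes, the later lists lacked from 21.7% (DE) to 42.5% (pNE_M) with all peaks kept. Most shares lay near those of all hPSC peaks, with pNE_M and pNE_H furthest below, and the differences were not tested. The low pNE_M share depended on counting any overlap. With an hPSC peak kept only if 50% covered, pNE_M lacked 8 of 20 (40.0%). In that setting pNE_H lacked 4 (20.0%), DE 6 (30.0%) and the other later lists 40.0% to 45.0%. By any overlap, the 8 peaks kept throughout had a median width of 221.5 bp and the 12 lost in at least 1 list 240.5 bp.

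**Figure D2:**
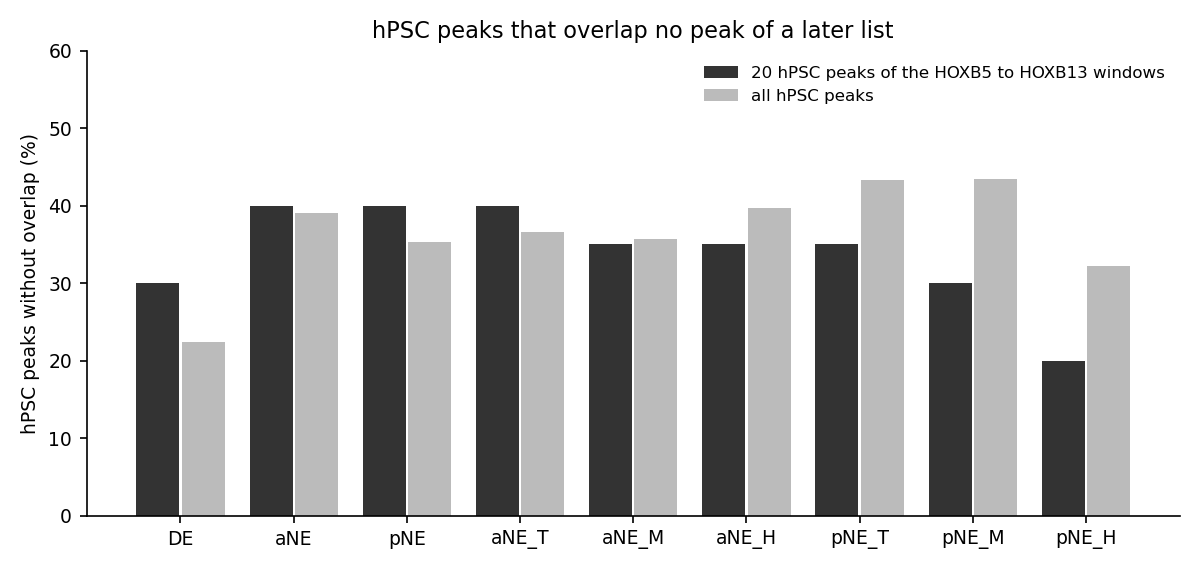
Share of hPSC peaks (vertical axis, percent) that overlap no peak of each later list (horizontal axis), for the 20 hPSC peaks of the HOXB windows (black) and for all hPSC peaks (grey). The black bars run from 20.0% in pNE_H to 40.0% in aNE, pNE and aNE_T, and the grey bars from 22.4% in DE to 43.5% in pNE_M.

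The 3 hPSC peaks with no later match were 1 of 328 bp at 48596535 to 48596862 and 1 of 157 bp at 48597125 to 48597281, both inside the bodies of HOXB6 and of the antisense transcript HOXB-AS3, and 1 of 272 bp at 48722541 to 48722812 inside PRAC2, whose bases before the PRAC1 start are printed above. Regions open in hPSC and in no later list were 3 of 26 here (11.5%), beside 4.63% of all regions and 4.92% of those within 3 kb of protein-coding genes. By peaks the share was 15.0% of 20 here, 4.17% of 24 at HOXB1 to HOXB4, 6.25% of 16 at HOXA5 to HOXA13, 10.8% of 37 at HOXC, 12.5% of 24 at HOXD and 10.7% of all 213572 hPSC peaks. These rest on 1 to 4 peaks per gene set, and the windows of HOXB3 and HOXB5 overlap.

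Missing from at least 6 later lists, though not from all, was 1 more hPSC region, which makes 4 of 26 (15.4%, beside 12.9% of all regions). It lies in the body of HOXB7, had no peak on days 1 and 2, and had one on day 4 in the pNE-derived lists. The region from 48609808 to 48610806 ends 211 bp short of the 5′ end of HOXB7. It held 615 bases inside hPSC peaks (215 and 400 bp wide), 0 in DE, aNE, pNE, aNE_T, aNE_M and aNE_H, and 142, 943 and 408 in pNE_T, pNE_M and pNE_H. The 400 bp hPSC peak was met by peaks of all 3 pNE-derived lists, and the 215 bp peak only by that of pNE_M. It was the only 1 of the 26 regions open in the 3 pNE-derived lists and in none of the 3 aNE-derived, a pattern of 2.33% of all regions. 0 of 26 had the opposite pattern (0.633% of all regions). Open in hPSC and the 3 pNE-derived lists alone were 260 regions of the series, or 0.0527%.

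HOXB5 (gene ID 3215, 48591257 to 48593779) is the first of the trunk genes in the order of the cluster. Peaks covered 735 bases of its window in hPSC, 879 in DE, and then 755 in aNE against 985 in pNE. On day 4 it held 749, 653 and 715 in aNE_T, aNE_M and aNE_H, and 922, 1071 and 1315 in pNE_T, pNE_M and pNE_H. The day 4 origins did not overlap, and pNE lay above aNE on day 2. Regions open in all 10 lists were 7 of 26 (26.9%), beside 16.5% of all regions and 18.9% of those within 3 kb of protein-coding genes. They begin here with a pair near the 5′ end, 48593119 to 48593683 inside the gene and 48593897 to 48594441 just beyond it. In aNE, pNE and the 3 aNE-derived lists these 2 held all peaks of the window. Beyond them pNE_H alone had a 346 bp peak at 48594492 to 48594837 (3 of 26 regions were open in pNE_H only, 11.5% beside 10.6% of all regions), and pNE_M and pNE_H had peaks of 574 and 126 bp in the region 48590111 to 48590684, on the 3′ side and reaching into HOXB3.

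HOXB6 (gene ID 3216, 48595751 to 48604986) has the longest annotated gene body of the 6, 9236 bp, and shares it with the antisense transcript HOXB-AS3. Peaks covered 1584 bases of its window in hPSC, 1878 in DE, and then 1630 in aNE against 1657 in pNE. Day 4 values were 1735, 1273 and 1250 in aNE_T, aNE_M and aNE_H, and 2139, 1630 and 2945 in pNE_T, pNE_M and pNE_H. The origins overlapped, since pNE_M lay below aNE_T. The main site was the region 48601458 to 48603003 inside the gene, open in all 10 lists. Peaks covered 425 of its bases in hPSC, 727 in DE, 710 in aNE and 672 in pNE, and on day 4 798, 620 and 535 in the aNE-derived and 1150, 1133 and 1345 in the pNE-derived lists, which did not overlap. Within 1 kb of the annotated 5′ end of HOXB6, 9 lists had no peak base and pNE_H had 125.

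HOXB7 (gene ID 3217, 48607232 to 48611017) and HOXB8 (gene ID 3218, 48612346 to 48615292) are neighbours and their windows share peaks. The HOXB7 window held 1095 bases inside hPSC peaks, 820 inside those of DE, and on day 2 aNE had 1176 and pNE 1372. It held 1117, 1306 and 1132 in aNE_T, aNE_M and aNE_H, and 1315, 2330 and 1543 in pNE_T, pNE_M and pNE_H. The lowest pNE-derived value thus exceeded the highest aNE-derived by 9 bases, so this separation is narrow. HOXB8, known for holding myeloid progenitors immature when overexpressed, had 1237 bases in hPSC and 1021 in DE, with 1301 in aNE against 1552 in pNE. Day 4 values were 1267, 1582 and 1273 in the aNE-derived lists and 1485, 2465 and 1717 in the pNE-derived lists, which overlapped. For both genes pNE_M had the highest value of the 10.

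The region 48611726 to 48612634, which runs from between the 2 genes into the 3′ end of HOXB8, was open in all 10 lists. It held 214 covered bases in hPSC, 612 in DE and 505 to 785 in the others. Inside HOXB8 the region 48613598 to 48614512 was also open in all 10, with 125 to 276 bases in every list other than pNE_M, which had 737. Another region, 48612788 to 48613504, was open in all lists other than pNE_M, with 208 (DE) to 693 (pNE) bases. The pNE_M peaks over HOXB8 were therefore shifted against those of the other lists and not only wider.

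HOXB9 (gene ID 3219, 48621156 to 48626358) is active in the thoracic trunk. Peaks covered 2077 bases of its window in hPSC and 2406 in DE. With 2314 in aNE against 2030 in pNE it was the only member with fewer bases in pNE than in aNE. Day 4 lists had 2673, 2175 and 2317 in aNE_T, aNE_M and aNE_H, and 2328, 2988 and 3551 in pNE_T, pNE_M and pNE_H, and the origins overlapped. These are 18.1% (pNE) to 31.7% (pNE_H) of the window. A region over its 5′ end, 48624986 to 48626955, was open in every list with 1211 (pNE) to 1764 (pNE_H) bases. The region 48618570 to 48620412, on the 3′ side between HOXB8 and HOXB9, was also open in every list. It was broken into 2 or 3 peaks in 9 lists, with 641 (aNE_M) to 1432 (aNE_T) bases, and in pNE_H it was a single peak of 1787 bp. Over the gene body alone, without the 3 kb each side, the pNE-derived mean of HOXB9 was not higher than the aNE-derived mean, with a difference of -87 bases.

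**Figure D3:**
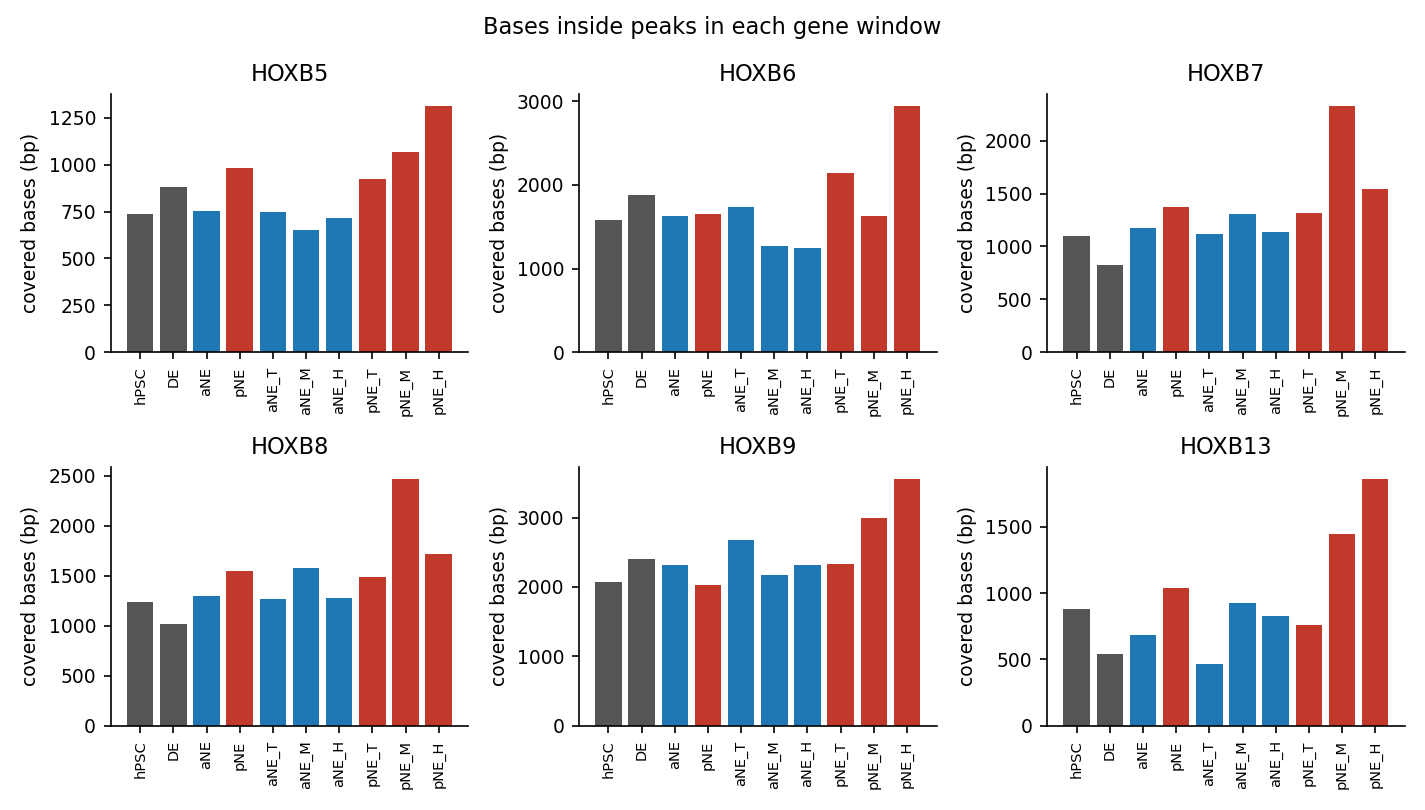
Bases inside peaks (vertical axis, bp, each panel from 0 with its own scale) in the window of each member gene, by list (horizontal axis); grey, hPSC and DE; blue, aNE and its descendants; red, pNE and its descendants. Each bar is 1 deposited list and has no error; the 3 right-hand red bars lie above the 3 blue day 4 bars for HOXB5 and HOXB7.

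HOXB13 (gene ID 10481, 48724763 to 48728750) lies apart from the other genes of the cluster. Peaks covered 878 bases of its window in hPSC, 538 in DE, and then 681 in aNE against 1036 in pNE. Day 4 values were 469, 929 and 831 in aNE_T, aNE_M and aNE_H, and 758, 1447 and 1859 in pNE_T, pNE_M and pNE_H. The origins overlapped through pNE_T. No region of this window was open in all 10 lists. The region over the 5′ end, 48728601 to 48729236, was open in 9 and lacked a peak in aNE, with 133 (pNE) to 583 (pNE_M) bases in those 9 and 340 in hPSC.

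The 3′ end of HOXB13 differed from the PRAC1 site in its course. The region 48724429 to 48725207, which spans the 3′ ends of HOXB13 and PRAC2, had no hPSC peak and a peak in each of the 9 later lists, a pattern of 1.15% of all regions. It held 121 bases in DE, 368 in aNE and 617 in pNE, then 314, 405 and 363 in the aNE-derived and 531, 154 and 760 in the pNE-derived lists. The microRNA gene MIR3185 lies at its lower edge (48724408 to 48724475, minus strand), and the mature product, with its seed in capitals, is shown because only some peaks reach it.
hsa-miR-3185: aGAAGAAGgcggucggucugcgg
The pNE peak took in all 23 mature bases, that of pNE_H 21 and that of aNE_T 3, and the other 7 lists covered 0. The region 48722958 to 48723223, around the PRAC2 transcript start whose sequence is printed above, had 266 bases in hPSC, 141 in DE, 0 in aNE and the 3 aNE-derived lists, 145 in pNE, and 0, 265 and 183 in pNE_T, pNE_M and pNE_H.

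**Figure D4:**
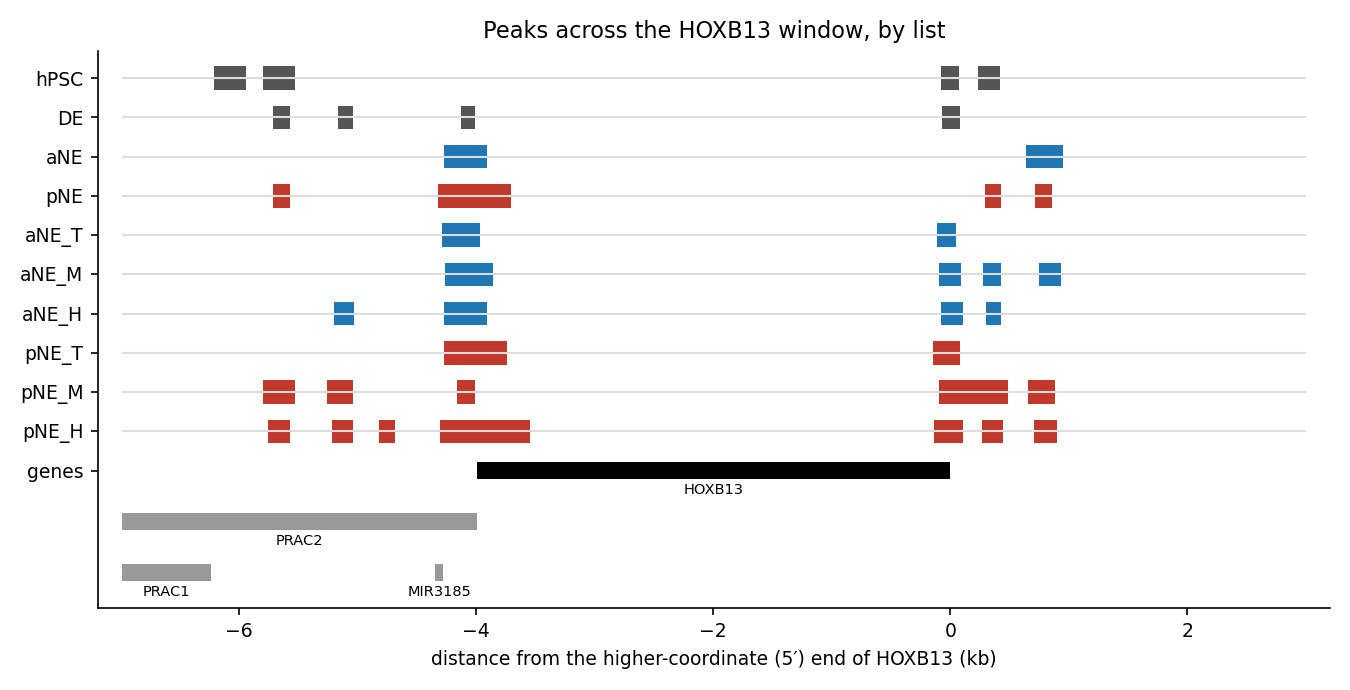
Peaks of each list (rows) across the HOXB13 window, with distance from the 5′ end of HOXB13 in kb on the horizontal axis and gene bodies below; colours as in the map of the HOXB5 to HOXB9 windows. The leftmost hPSC peak, 272 bp wide, has no counterpart in the later lists, and the region at the left end of the HOXB13 body is present in each of the 9 later lists and absent from hPSC.

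Against hPSC, fewer bases were covered in DE for 3 of 6 members (HOXB7, HOXB8 and HOXB13), where 41.3% of 20033 protein-coding genes with the same window had fewer. In aNE 1 of 6 had fewer (HOXB13; 63.8% of all genes) and in pNE 1 of 6 (HOXB9; 55.6%). Among aNE-derived lists it was 1 in aNE_T (HOXB13; 47.6%), 2 in aNE_M (HOXB5 and HOXB6; 47.3%) and 3 in aNE_H (HOXB5, HOXB6 and HOXB13; 58.8%). Among pNE-derived lists it was 1 in pNE_T (HOXB13; 54.5%), 0 in pNE_M (62.9%) and 0 in pNE_H (27.7%). The median member ratio to hPSC was 1.55 in pNE_M and 1.75 in pNE_H, and the medians over all genes with bases in both lists 0.888 and 1.15. All 9 comparisons share the hPSC list. Neighbouring windows from HOXB5 to HOXB9 overlap, so member counts here and below are not counts of independent genes.

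The design sets the anterior against the posterior branch. On day 2, 5 of 6 members had more covered bases in pNE than in aNE, where 54.4% of all genes did, and the 6 windows together held 349 bases more in pNE. This order turned with list length. Per Mb covered in the list aNE had 78.5 bases and pNE 72.8, and at an equal number of widest peaks aNE had 5926 and pNE 5722. With the widest 50% of each list, and with 0 or 10 kb each side, pNE had more. On day 4 the windows together held a mean of 5925 bases in the 3 aNE-derived and 8766 in the 3 pNE-derived lists, a ratio of 1.48. A two-sided exact permutation test over the 6 lists gave p = 0.1 for this difference of 2842 bases, the smallest value that 3 lists against 3 allow, so the design could not reach 0.05. It treats the 3 media of an origin as 1 group of lists. Within telencephalon, midbrain and hindbrain medium pNE-derived lists had 671, 3327 and 4527 bases more, and an exact two-sided sign-flip permutation test over these 3 pairs gave p = 0.25, the smallest that 3 pairs allow. Without pNE_M the difference was 2582 bases. HOXB5 and HOXB7 were the 2 of 6 members with more bases in each pNE-derived than in each aNE-derived list, beside 7.06% of all genes, and 0 of 6 had the reverse (3.00% of all genes). Neither separation held under every setting. For HOXB5 it ended with gene bodies alone, where the difference was 11 bases (exact permutation p = 0.9), and with the widest 50% of each list (exact permutation p = 0.3). For HOXB7 it ended per Mb covered (exact permutation p = 0.6), and with the widest 50% or an equal number of peaks (exact permutation p = 0.2 in both). Of the 6 single members, HOXB5 and HOXB7 had an exact permutation p of 0.1, HOXB6, HOXB8 and HOXB9 of 0.2 and HOXB13 of 0.3. Their pNE-derived over aNE-derived ratios ran from 1.24 (HOXB9) to 1.82 (HOXB13) with a median of 1.51, and the median over 18308 genes was 1.02 with a range from the 5th to the 95th percentile of 0.788 to 1.55.

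List length and peak width were set beside this result. Per Mb covered in the whole list, the windows held 65.3 to 70.5 bases in the aNE-derived lists and 76.2, 110 and 78.9 in pNE_T, pNE_M and pNE_H, with a ratio of 1.31. Keeping only the widest 167792 peaks of every list gave a ratio of 1.48. The narrowest peak of the whole list was 122, 122 and 126 bp in the aNE-derived and 115, 114 and 109 bp in the pNE-derived lists. Origin, plating density and this difference between the lists cannot be told apart.

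Media were set side by side within each origin, with 1 list each and no test. Among aNE-derived lists the windows together held 473 bases less in hindbrain than in telencephalon medium, and 3 of 6 members had more in aNE_H than in aNE_T (32.6% of all genes). Among pNE-derived lists they held 3383 more in hindbrain medium, or 1868 more at an equal number of widest peaks. Per Mb covered in the list, pNE_H had 78.9 bases and pNE_T 76.2, which are close. All 6 members had more bases in pNE_H than in pNE_T, where 79.2% of all genes did. In aNE_M 3 of 6 members had more bases than in aNE_T (45.0% of all genes), and in aNE_H 2 of 6 had more than in aNE_M (27.9%). In pNE_H 4 of 6 had more than in pNE_M (85.2%), the others being HOXB7 and HOXB8. In pNE_M 5 of 6 members had more bases than in pNE_T, beside 33.5% of all genes, and the exception was HOXB6. The median member ratio of pNE_M over pNE_T was 1.47, from 0.762 to 1.91, and the median over 17873 genes was 0.942.

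The pNE_M list also placed its peaks differently from the rest. Of its 9286 bases in the windows, 2415 (26.0%) lay in no peak of any other list, against 7.97% of its bases over all chromosomes used. These bases made up 48.7% of its total at HOXB7, 46.9% at HOXB8, 42.8% at HOXB5, 14.8% at HOXB13, 12.4% at HOXB9 and 2.64% at HOXB6. The HOXB7 and HOXB8 windows overlap, so bases in the shared part count for both genes. The next highest shares were 13.2% in hPSC and 11.1% in pNE_H, beside 10.4% and 16.9% of their bases over all chromosomes used. The other 7 lists had 0.146% to 3.84% in the windows, beside 2.54% (aNE) to 10.4% (DE) over all chromosomes used. Overlap of 2 lists was also measured as the bases in both divided by the bases in either. In the windows this averaged 0.306 between pNE_M and the 9 other lists, and 0.408 to 0.583 for the other lists, while over the whole lists pNE_M averaged 0.473, inside the range of 0.45 to 0.545. Its own day 2 source, pNE, shared 0.275 with it in the windows, and pNE_H, its nearest list there, 0.457. Other HOX genes showed such bases too: the pNE_M bases in no other list came to 2038 of 9251 at HOXB1 to HOXB4, 30.2% at HOXA5 to HOXA13, 27.9% at HOXC and 5.5% at HOXD. The HOXB3 and HOXB5 windows overlap, so the pNE_M peak at 48590111 to 48590684 counts for both sets of HOXB genes.

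**Figure D5:**
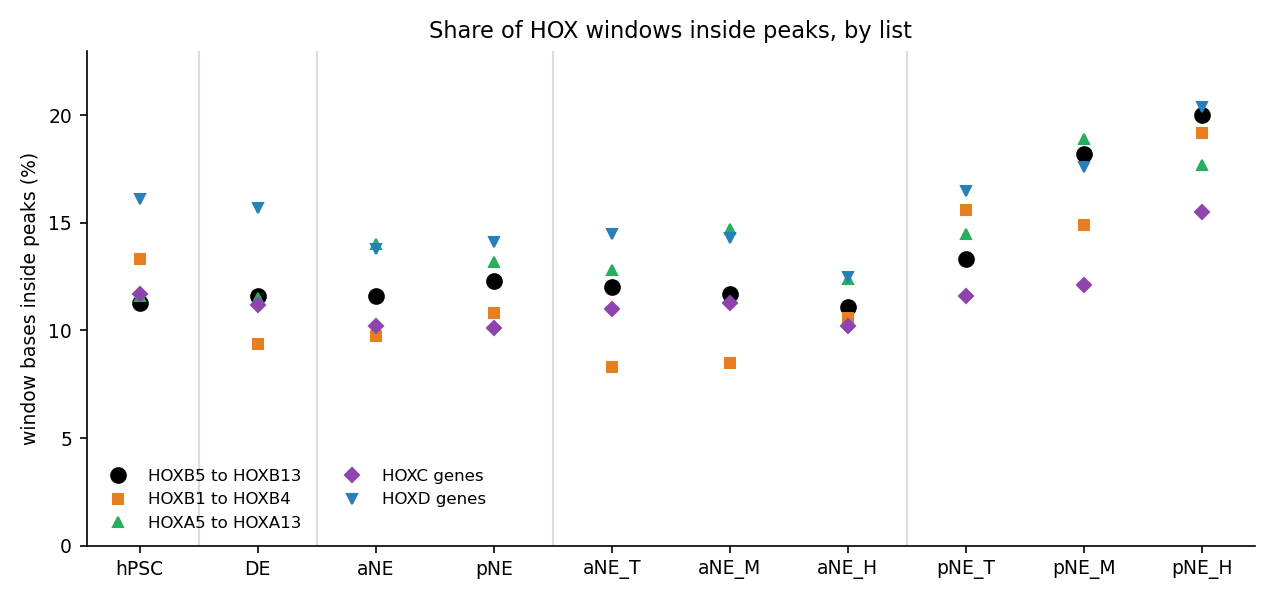
Share of the window bases inside peaks (vertical axis, percent, from 0) for HOXB5 to HOXB13 (black circles) and 4 other sets of HOX genes, by list (horizontal axis, vertical lines between days and day 4 origins). The black circles lie between 11.1% and 12.3% up to aNE_H and reach 13.3%, 18.2% and 20.0% in pNE_T, pNE_M and pNE_H.

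Other HOX gene sets are set beside these windows. The HOXB1 to HOXB4 set is not fully separate, since the HOXB3 window overlaps that of HOXB5. HOXB1 to HOXB4 had 13.3% of window bases inside peaks in hPSC and 9.39% in DE, and HOXB5 to HOXB13 had 11.3% and 11.6%. HOXA5 to HOXA13 had 11.6% and 11.5%, HOXC 11.7% and 11.2%, and HOXD 16.1% and 15.7%. On day 4 the pNE-derived over aNE-derived ratio was 1.82 at HOXB1 to HOXB4, 1.48 at HOXB5 to HOXB13, 1.28 at HOXA5 to HOXA13, 1.32 at HOXD and 1.2 at HOXC. HOXB1 to HOXB4 had 14.9% in pNE_M and 15.6% in pNE_T, the only HOX set lower in pNE_M. HOXB5 to HOXB13 had 18.2% and 13.3%, HOXA5 to HOXA13 18.9% and 14.5%, HOXC 12.1% and 11.6%, and HOXD 17.6% and 16.5%. These are side-by-side values of single lists, and the differences between gene sets were not tested.

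Of 23 genes that act on HOX clusters or with their products, 1 had more bases in each pNE-derived than in each aNE-derived list, beside 7.06% of all genes, and 0 had fewer in each (3.00%). This is no more than the background. The 1 gene was RARB, a retinoic acid receptor, with 19787, 19972 and 18832 bases in the aNE-derived and 28930, 26096 and 45127 in the pNE-derived lists. CDX2, a homeodomain factor that acts on trunk HOX genes, had 3146, 3086 and 2328 against 2503, 3365 and 2740. EZH2, the Polycomb methyltransferase, had 3075, 3550 and 2984 against 3709, 3344 and 5727, and CTCF, which binds boundaries inside HOX clusters, 3586, 2888 and 3092 against 3132, 2827 and 3610. For these 3 genes the origins overlapped.

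Among 17466 genes outside the HOX clusters with peak bases in every list, those whose covered bases followed the HOXB5 to HOXB13 total most closely over the 10 lists were SFMBT2 (Pearson r = 0.979), MAPK14 (0.979), STEAP2 (0.973), LRRC31 (0.968) and ITGB8 (0.961). SFMBT2, which encodes an MBT-domain protein, had 9311, 12077 and 14303 bases in pNE_T, pNE_M and pNE_H and 5389 to 6840 in the other 7 lists. All points share the 10 lists and their lengths, and the covered bases of the whole lists had r = 0.688 with the same total.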

How the data were processed

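Omni-ATAC-seq was described for 30 libraries in 10 groups of 3. The deposited values are peak positions, 1 list per group, without header or score. The submitters' processing notes name FastQC, Bowtie2, MACS2, bedtools, featureCounts, edgeR, deepTools and build hg38. Thresholds and the way replicates were combined are not given in the sources used here, so a changed threshold between lists would move every count. List names match 1 group each.

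Gene bodies came from a RefSeq table (GRCh38.p14) without strand or exons. Exon positions were not used here. Peaks were merged across lists where they shared at least 1 bp. Covered bases and peak numbers were computed in gene bodies with 3 kb each side for the 6 genes and for 20033 protein-coding genes. Named regions were those in hPSC and missing from at least 6 later lists, those of 1 day 4 origin only, and those in all 10 lists. Regions described beyond these were chosen after their values were seen. Of the 6 members 0 matched the RefSeq promoter table. The members and gene lists were chosen with earlier results of these data known. Alternatives were the widest 50% of each list, equal list length by width, 0 and 10 kb flanks, 50% coverage for a kept hPSC peak, peak numbers, scaling by list leaving out each day 4 list and, added after seeing the data, pairing lists by medium. The code was tested on simulated lists. Python 3.11.15, numpy 2.4.6, pandas 2.3.3, scipy 1.17.1 and matplotlib 3.10.9 were used.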

Additional observations from a re-analysis of the deposited data

Results flagged for a closer look

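Hindbrain minus telencephalon medium had opposite signs in the origins for the total and for 3 of 6 members. Over all protein-coding genes 32.6% had more bases in aNE_H than in aNE_T, and 79.2% more in pNE_H than in pNE_T. The median gene ratios were 0.935 and 1.24, so genes in general leaned the same ways as the total. How many genes had opposite signs was not counted. The windows of all 6 genes held 473 bases less in aNE_H than in aNE_T (-473) and 3383 more in pNE_H than in pNE_T. For HOXB5 the differences were -34 and 393 bases, for HOXB6 -485 and 806, and for HOXB9 -356 and 1223. HOXB7 (15 and 228), HOXB8 (6 and 232) and HOXB13 (362 and 1101) had the same sign in both. Per Mb covered in the list, the total was 67.5 in aNE_H and 70.5 in aNE_T, and 78.9 in pNE_H and 76.2 in pNE_T. With 1 list per origin and medium, the difference between origins was not tested.

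The 92.4 kb between the HOXB9 and HOXB13 windows (48629359 to 48721762), which the 3 kb windows leave out and of which the 10 kb alternative takes in only the ends, held 17 hPSC peaks covering 8537 bases. Later lists held 10 to 19 peaks and 4832 (aNE_H) to 6907 (pNE_H) bases there. Of the 17, 1 overlapped no peak in any later list, beside 10.7% of all hPSC peaks. DE lacked 2, pNE_H 3, aNE_T and pNE_M 5 each, and the other 5 later lists 7 each, beside 22.4% (DE) to 43.5% (pNE_M) of all hPSC peaks.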

How the results depend on the processing

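The day 4 difference by origin kept its direction in all 13 alternatives, with 1419 bases with gene bodies alone, 3735 with 10 kb each side, and 2126 (without pNE_H) to 3817 (without pNE_T) with 1 day 4 list left out. The exact permutation p was 0.1 to 0.25, which cannot show stability in a design of this size. Of the 66 alternatives for single members 1 turned the direction, HOXB9 with gene bodies alone (-87). Sizes moved more. With gene bodies alone HOXB5 had 11 in place of 397, HOXB8 56 in place of 515 and HOXB13 190 in place of 612. Without pNE_M HOXB7 had 244 in place of 544 and HOXB8 227. Without pNE_H HOXB6 had 465 in place of 819, HOXB9 270 in place of 567 and HOXB13 360, and without pNE_T HOXB9 had 881. With the widest 50% HOXB9 had 1022 and HOXB13 264, and at equal list length HOXB13 had 394. With 10 kb each side HOXB5 had 1452, HOXB6 1710, HOXB7 1733, HOXB8 978 and HOXB13 1167.

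Covered bases moved by more than 1.5 times mostly with gene bodies alone, which by construction hold fewer bases: 3528 in hPSC, 3269 in DE, 3362 in aNE, 3595 in pNE, 3628 in aNE_T, 3500 in aNE_M, 2857 in aNE_H, 4409 in pNE_M and 5251 in pNE_H. The hPSC value was also 3805 with the widest 50% of peaks and 10252 with 10 kb each side. With the widest 50%, hPSC peaks lacking in DE were 55.6%, in aNE_M 66.7% and in pNE_H 33.3%, of 9 peaks. Hindbrain minus telencephalon medium was -882 bases in aNE-derived lists at equal list length and -832 with 10 kb each side, and 1868 in pNE-derived lists at equal length. The causes were not tested. No paired analysis was possible because each group has 1 list, so the labels' replicate numbers pair no values, and no replicate could be left out. Pairing the lists by medium, chosen after seeing the data, gave an exact permutation p of 0.25.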
